A study of Mus musculus with 4 samples.

Results

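Alveolar type 2 epithelial cells were taken from droplet single-cell RNA sequencing of whole mouse lung by a gate on the RNA of each barcode, so the members were chosen by their own UMI counts. A barcode was kept when it had UMIs (unique molecular identifiers, 1 per captured RNA molecule) of at least 300 genes and at most 20% of its UMIs from mitochondrial genes. A kept barcode was gated when it held at least 10 UMIs of Sftpc and at least 1 UMI of at least 4 of the 8 genes Lamp3, Slc34a2, Etv5, Abca3, Hc, Sftpb, Cxcl15 and Napsa. It also had to hold 0 UMIs of Cd3e, Cd79a, Cdh5, Ptprc and Foxj1, which mark T cells, B cells, endothelium, leukocytes and ciliated cells. Of 53463 kept barcodes, 354 passed. They came as 229 and 11 cells from GAL replicates 1 and 2 and as 64 and 50 cells from WT replicates 1 and 2, so 1 GAL library held 64.7% of them. Wherever a pair of values is given for a group, replicate 1 comes before replicate 2.

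Type 2 cells are cuboidal cells of the alveolar wall. They make pulmonary surfactant, a film of phospholipid and a few proteins that lowers surface tension, pack it in lysosome-related organelles named lamellar bodies, and release it into the airspace. They also serve as progenitors of the flat type 1 cells that carry gas exchange, and they take part in the innate defence of the alveolus. Their lipid output draws on fatty acid, phosphatidylcholine and cholesterol synthesis.

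GAL stands for mice with an edited Galt gene and WT for wild-type mice, with 2 libraries in each group. Galt encodes galactose-1-phosphate uridylyltransferase, a Leloir pathway enzyme that channels galactose into glucose metabolism, and the comparison asks how the edit goes with the state of these cells. Both groups were handled alike: lungs were washed, minced and freed into single cells with collagenase IV and DNase I, and no further treatment is named. The kind of edit, the strain, age and sex of the animals, and how many animals went into a library are not given in the sources used here, so p-values measure the spread between these 4 libraries, which may be technical.

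The libraries held 62406681 and 56218178 UMIs in GAL and 61340929 and 58518235 UMIs in WT. Xist, the RNA of the inactive X chromosome, lay between 745 and 852 CPM (UMIs of a gene scaled to the total of a summed group of cells, with that total set to 10 to the sixth) in the gated cells of all 4 libraries. The Y-linked genes Kdm5d, Eif2s3y, Uty and Ddx3y were at 0 in the gated cells of all 4 libraries. In the other barcodes only Ddx3y was found, at 0.0823 CPM at most, so the RNA had a female pattern in every library. Any pair of libraries shared 107 to 149 barcodes, and no shared barcode was gated in both libraries of a pair. GAL replicate 1 stood apart in Sftpc RNA outside the gate as well as in cells. Sftpc was found in 73.6% and 5.06% of the other kept barcodes in GAL, against 21.8% and 18.0% in WT, and in cells with a UMI of the T cell gene Cd3e the shares were 72.6% and 3.34% in GAL, against 19.02% and 17.08% in WT. The other kept barcodes include those with at least 10 Sftpc UMIs that failed another term of the gate, and the source of this RNA was not tested. The share of cells and the calls below are given with and without GAL replicate 1.

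Galt was sparse in the gated cells. It gave 27 and 0 UMIs in GAL, in 27 of 229 and 0 of 11 cells. A count of 0 in 11 cells allows a share of up to 27.3% of cells with a Galt UMI (3 counts of 11), which at this level is no limit on cells that express the gene. In WT it gave 5 and 3 UMIs, in 5 of 64 and 3 of 50 cells. The levels were 16.2 and 0 CPM in GAL gated cells and 13.8 and 9.75 CPM in WT gated cells, and 13.3 and 10.8 CPM in the other GAL barcodes against 11.5 and 11.5 CPM in the other WT barcodes. Galt was too low for the test across genes. The gene lies at chr4:41755228-41758695 on the plus strand (GRCm38, GENCODE M21), and since the edit itself is not described, its RNA level does not check the labels.

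The yield of type 2 cells differed more within GAL than between the groups. Gated cells made up 1.89% (95% exact binomial interval 1.65 to 2.14) and 0.0925% (0.0462 to 0.166) of kept barcodes in GAL, and 0.457% (0.352 to 0.583) and 0.324% (0.241 to 0.427) in WT. The GAL libraries gave the highest and the lowest share, with both WT libraries between them. The means were 0.989% ± 1.27 in GAL and 0.391% ± 0.0936 in WT (SD, n = 2 each; exact two-sided permutation p = 1, with 0.33 the smallest p that 4 libraries allow). Without GAL replicate 1 the difference turned to -0.298 percentage points, so its direction rested on that library. Among barcodes with a UMI of the epithelial gene Epcam, the share was 9.26% and 0.691% in GAL, against 2.16% and 1.63% in WT, in the same order of libraries. These are shares of cells that survived dissociation, and intervals cover counting error only.

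**Figure D1:**
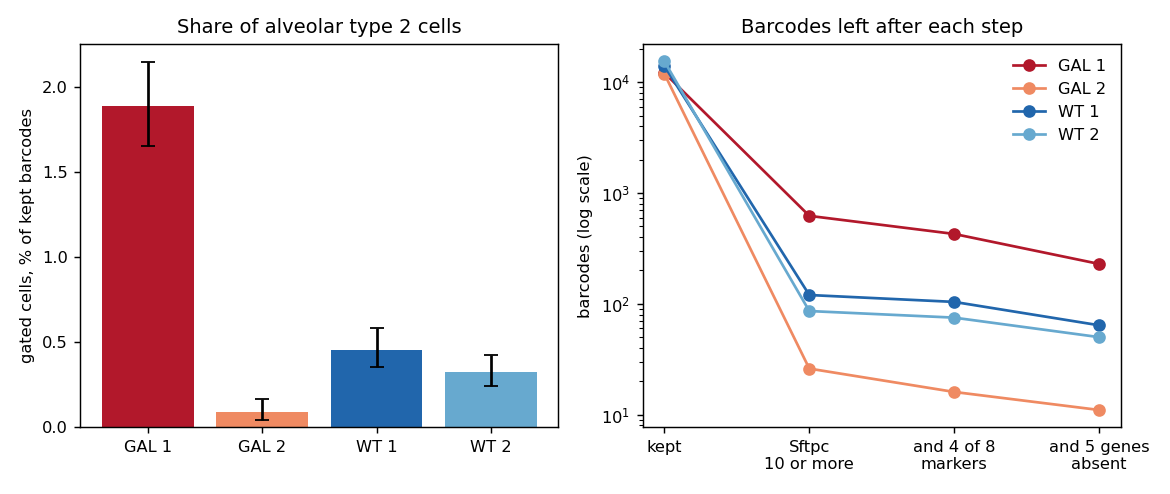
Left, gated type 2 cells as a percentage of kept barcodes in each library (y axis), with 95% exact binomial intervals as bars; right, barcodes left after each step of the gate (log y axis). The 2 GAL libraries lie at 1.89% and 0.0925%, outside the 2 WT libraries at 0.457% and 0.324%.

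The steps of the gate showed the same order. Barcodes with at least 10 Sftpc UMIs numbered 622 and 26 in GAL and 120 and 86 in WT, and 427 and 16 in GAL and 104 and 75 in WT also held 4 of the 8 markers. The exclusion genes then removed 46.4% and 31.2% of these in GAL and 38.5% and 33.3% in WT. The endothelial gene Cdh5 alone removed 119 and 1 in GAL and 14 and 3 in WT. Just inside the Sftpc threshold, the lowest gated cell held 13 and 32 UMIs in GAL and 21 and 19 UMIs in WT. Just outside it, barcodes that met all other terms but had under 10 Sftpc UMIs numbered 3 and 4 in GAL and 2 and 0 in WT and held 4 at most. Gated cells with exactly 4 markers numbered 13 and 1 in GAL and 1 and 2 in WT, and barcodes with 3 markers that met every other term numbered 18 and 0 in GAL and 5 and 0 in WT.

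The gated cells were deeply sampled. The median cell held 7916 and 7251 UMIs of 2393 and 2217 genes in GAL, against 5958 and 7130 UMIs of 2016 and 2128 genes in WT. Medians of all 3 quality measures were higher in both GAL libraries than in both WT libraries, the last being mitochondrial UMIs at 3.61% and 3.18% in GAL and 2.98% and 2.85% in WT (exact permutation p = 0.33 for each measure, the smallest possible). A tail of shallow cells was present in 3 libraries: 33 and 0 GAL cells and 7 and 12 WT cells held under 2000 UMIs. All 8 markers were found in 63.8% and 63.6% of gated cells in GAL and in 62.5% and 72.0% in WT, so the defining markers of the label were present, as the gate itself required.

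Sftpc made up a large part of the RNA of most gated cells, by the choice of the gate. Of the UMIs of the median cell, 16.5% and 13.6% were Sftpc in GAL, against 13.5% and 18.0% in WT, and 14 surfactant protein and processing genes together took 22.9% and 21.4% in GAL, against 20.6% and 26.1% in WT. Single cells ranged from 0.678% to 30.9% Sftpc in GAL replicate 1 and from 1.19% to 20.8% in WT replicate 1. The gate chose the cells by Sftpc UMIs, so both measures are a description without a test. The groups overlapped in both, and leaving out single libraries turned the sign of each difference.

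**Figure D2:**
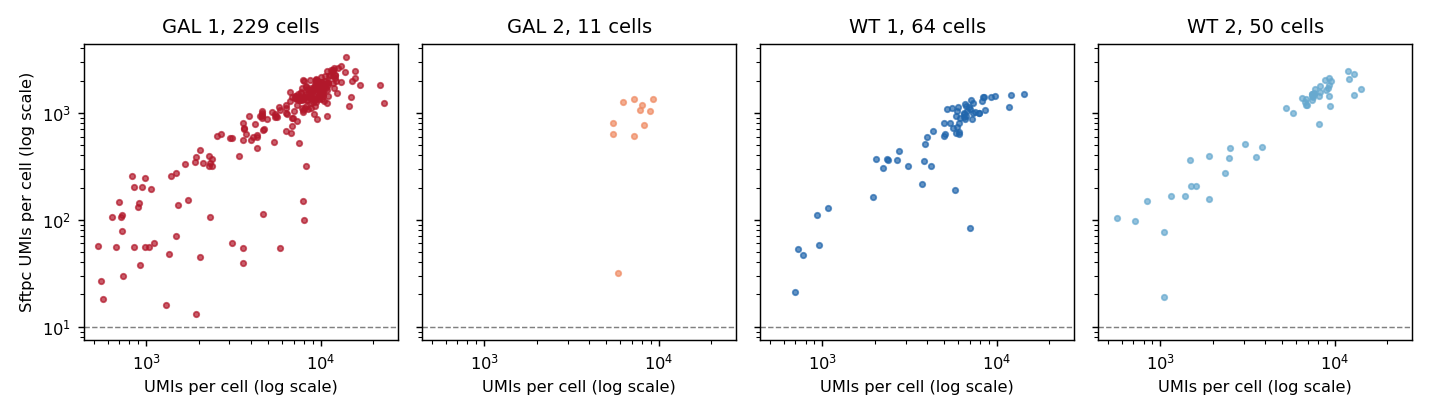
Sftpc UMIs (y axis, log scale) against all UMIs (x axis, log scale) of every gated cell, with 1 panel per library and the threshold of 10 Sftpc UMIs as a dashed line. Most cells of all 4 libraries lie in one band near 1000 Sftpc UMIs, with a sparse tail that reaches down to 13 Sftpc UMIs. The tail holds shallow cells and some deep ones. In GAL replicate 1 a cell with 5849 UMIs held 55 of Sftpc. In GAL replicate 2, where no cell held under 5451 UMIs, the lowest held 32 of Sftpc.

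What the gated cells held was set beside all other kept barcodes of the same library as a description, since the gate chose the cells by this RNA. Sftpc reached 160536 and 126199 CPM in gated cells of GAL and 135913 and 176651 CPM in those of WT. Its level in the other barcodes was 3002 and 92.6 CPM in GAL and 467 and 457 CPM in WT. It encodes surfactant protein C, a small hydrophobic peptide of the film, and its gene lies at chr14:70520949-70524081 on the minus strand. Of 1797 genes outside the gate that reached 50 CPM in gated cells, 89 were at least 10 times and 180 at least 4 times as high as in the other barcodes in every library.

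The genes with the highest ratios outside the gate had various roles. Sftpa1, which encodes the collectin surfactant protein A, had 20673 and 24822 CPM in GAL gated cells and 25503 and 24353 CPM in WT gated cells, against 441 and 31.0 CPM and 114 and 77.5 CPM in the other barcodes. Sftpd, the collectin surfactant protein D, had 4072 and 5786 CPM in GAL and 6412 and 4867 CPM in WT. Sfta2, a small surfactant-associated secreted protein, was the steadiest of these, with 1493 and 1503 CPM in GAL and 1477 and 1443 CPM in WT. S100g, the calcium-binding protein calbindin-D9k, had 1435 and 1816 CPM in GAL and 1598 and 1790 CPM in WT. Chil1, a chitinase-like secreted protein, had 2459 and 3532 CPM in GAL and 4869 and 2391 CPM in WT. Egfl6 (360 and 301 CPM in GAL, 312 and 387 CPM in WT) and Mlc1 (142 and 200.4 CPM in GAL, 163 and 114 CPM in WT) ranked first when genes outside the gate were ordered by their lowest ratio over the 4 libraries. Others in the leading group were Acoxl, Bex4, Chia1, Lgi3, Ppp1r14c, Arhgef38, Slco4c1, Rbpjl, Sgpp2, Lrp2, Pla2g1b, Cox6a2 and Bex2.

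**Figure D3:**
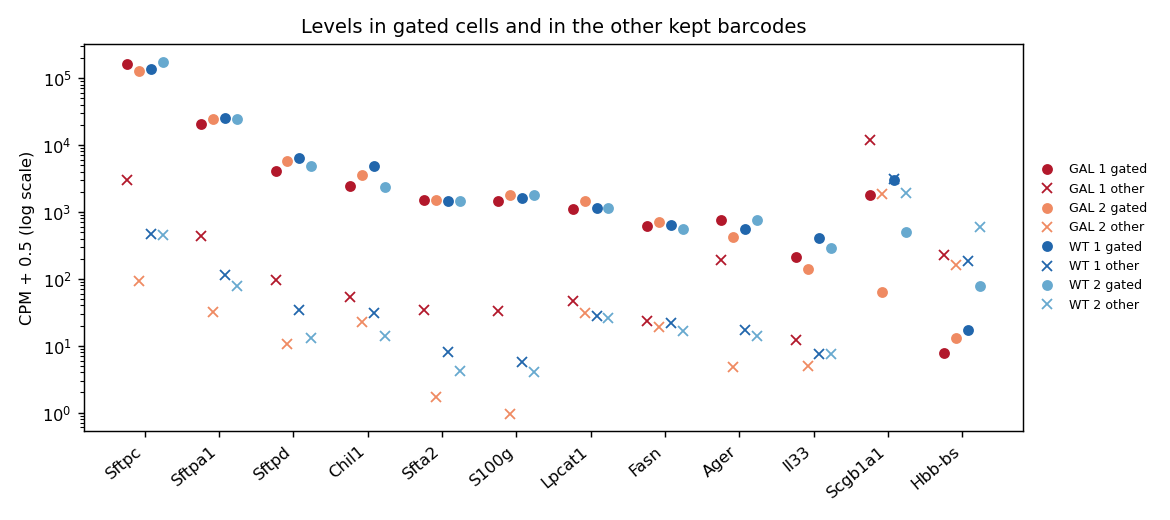
Level of 12 genes in gated cells (dots) and in all other kept barcodes (crosses) of each library, as CPM plus 0.5 on a log y axis. Dots stand well above crosses for the surfactant, lipid and Ager RNAs, while Scgb1a1 and Hbb-bs are no higher in gated cells than in other barcodes.

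The promoters of a pair of surfactant genes with abundant RNA are shown as examples that hold the motif below. Sftpb is a gene of the gate, which in part sets its restriction to gated cells. The promoters of Sftpc and Sftpd were not in the set used. NKX2-1, the homeodomain factor of lung epithelium, binds a core written CTCAAG, which is in capitals here where it occurs on either strand. The sequences run 250 bases up to the start of the gene in RefSeq (GRCm38.p6).
Sftpb, chr6:72304360-72304609, plus strand: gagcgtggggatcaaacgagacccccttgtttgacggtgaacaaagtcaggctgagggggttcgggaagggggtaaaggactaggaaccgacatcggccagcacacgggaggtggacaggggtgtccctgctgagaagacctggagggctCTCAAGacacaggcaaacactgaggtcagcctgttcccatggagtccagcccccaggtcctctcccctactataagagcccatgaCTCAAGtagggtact
Sftpa1, chr14:41131538-41131787, plus strand: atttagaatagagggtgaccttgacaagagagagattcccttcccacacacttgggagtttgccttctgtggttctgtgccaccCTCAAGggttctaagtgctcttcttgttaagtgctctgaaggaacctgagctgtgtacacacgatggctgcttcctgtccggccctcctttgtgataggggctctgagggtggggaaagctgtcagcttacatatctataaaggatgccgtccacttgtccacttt
The Sftpb promoter held 2 matches and the Sftpa1 promoter 1. The motif is common: 3666 of 27025 RefSeq promoters (13.6%) held a match, as did 4 of the 24 promoters found for 29 genes of the gate and the leading group (16.7%). A match is a run of letters and not a site of binding.

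Levels of Sftpb and of proteases that process surfactant proteins are given here by group. Sftpb, whose protein is needed to form the film, had 8174 and 7489 CPM in GAL and 6506 and 6869 CPM in WT. Napsa, an aspartic protease that trims the surfactant protein precursors, had 1719 and 1252 CPM in GAL and 1709 and 1894 CPM in WT. Ctsh, a lysosomal protease of the same maturation, had 1339 and 1277 CPM in GAL and 899 and 1189 CPM in WT (log2 fold change 0.31 ± 0.24 SE). Sftpb and Napsa belong to the gate, which chose the cells by them, so their values are a description. Ctsh, outside the gate, was not called.

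The test compared UMIs summed over gated cells, 1664659 and 79850 in GAL and 361643 and 307765 in WT, by edgeR's quasi-likelihood test with Benjamini-Hochberg adjustment over 4125 genes. At an adjusted p below 0.05, 2 genes were called, or 0.0485% of those tested, both higher and 0 lower in GAL. Before adjustment 120 genes (2.91%) had p under 0.05, 69 of them higher (1.67%) and 51 lower (1.24%) in GAL. The level in both GAL libraries was above both WT libraries for 614 genes (14.9%) and below both for 598 genes (14.5%). DESeq2 called 0 genes, with 21 at an unadjusted p under 0.05. The median log2 fold change over all tested genes was -0.00. The smallest library has 11 cells, which bounds what could be seen. Sums were also simulated with the same means and library sizes and a common dispersion of 0.0365 for all genes. Genes were changed only where at least 2 UMIs were expected in the smallest library. Of these, 88 of 100 changed 4-fold and 93 of 100 changed 16-fold were recovered. Among 3781 genes there were 10 calls of genes that were not changed. No cells were simulated, so the recovery does not cover genes whose UMIs sit in few cells.

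Fmo2, a flavin-containing monooxygenase that oxidises xenobiotics, had 267 and 175 CPM in GAL gated cells, against 49.8 and 71.5 CPM in WT gated cells. Both GAL libraries were above both WT libraries, and Fmo2 rose with a log2 fold change of 1.98 ± 0.34 (SE; edgeR adjusted p = 0.0387). The gene lies at chr1:162874317-162898726 on the minus strand. Gpx3, the secreted glutathione peroxidase, had 216 and 87.7 CPM in GAL, against 52.5 and 22.7 CPM in WT, again without overlap. It rose with a log2 fold change of 2.23 ± 0.41 (edgeR adjusted p = 0.0387), and lies at chr11:54902453-54910377 on the plus strand. In GAL replicate 2 most UMIs of both genes came from 1 cell, described below.

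Both genes were lower in gated cells than in the other kept barcodes, and a large part of their RNA sat in few of the gated cells. In the other barcodes Fmo2 had 775 and 275 CPM in GAL and 161 and 228 CPM in WT, and Gpx3 had 620.0 and 318 CPM in GAL and 204 and 192 CPM in WT, in every library more than in gated cells. For both genes the other barcodes, too, were higher in both GAL libraries than in both WT libraries, so the difference was not particular to gated cells. Fmo2 was found in 95 of 229 and 5 of 11 gated cells in GAL and in 9 of 64 and 12 of 50 in WT. Gpx3 was found in 66 of 229 and 2 of 11 in GAL and in 8 of 64 and 3 of 50 in WT. In GAL replicate 1, 3 of 229 cells held 33.1% of the 444 Fmo2 UMIs and 3 held 45.4% of the 359 Gpx3 UMIs. In GAL replicate 2, 1 of 11 cells held 9 of 14 Fmo2 UMIs, and the same cell held 6 of 7 Gpx3 UMIs. The WT counts were 18 and 22 UMIs for Fmo2 and 19 and 7 UMIs for Gpx3.

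Much of the RNA of both genes lay in gated cells that also held RNA of stromal and endothelial cells. Gated cells with at least 10 UMIs over 54 fibroblast, capillary, mural and mesothelial markers, those lower in gated cells than in other barcodes, numbered 47 (20.5%) and 1 (9.09%) in GAL and 3 (4.69%) and 3 (6%) in WT. Those cells held 27.04% and 7.32% of the gated UMIs in GAL and 10.5% and 12.7% in WT, but 88.6% and 85.7% of the Gpx3 UMIs in GAL and 68.4% and 85.7% in WT. For Fmo2 they held 77.5% and 64.3% in GAL and 55.6% and 45.5% in WT. The 1 such cell of GAL replicate 2 held 0.293% of the Slc34a2 UMIs and 1.26% of the Sftpa1 UMIs of that library's gated cells. The levels of Fmo2 and Gpx3 in GAL replicate 2, and with them the lack of overlap between groups, rested mostly on that cell. The 13 alveolar fibroblast markers summed to 1516 and 776 CPM in GAL gated cells and 987 and 819 CPM in WT gated cells, against 3799 and 1856 CPM and 1491 and 1964 CPM in the other barcodes, with 0 and 6 of the 13 at 0 in GAL and 2 and 4 in WT. The 10 adventitial fibroblast markers summed to 425 and 125 CPM in GAL and 232 and 513 CPM in WT, with 0 and 4 at 0 in GAL and 1 and 1 in WT. The 12 general capillary markers summed to 166 and 37.6 CPM in GAL and 80.2 and 97.5 CPM in WT, with 0 and 9 at 0 in GAL and 3 and 2 in WT. The 10 pericyte and smooth muscle markers summed to 57.7 and 50.1 CPM in GAL and 16.6 and 923 CPM in WT, with 0 and 7 at 0 in GAL and 6 and 3 in WT. The 6 mesothelial markers summed to 1.80 and 0 CPM in GAL and 0 and 9.75 CPM in WT. These sums did not separate the groups, and GAL replicate 2 had the lowest sums for alveolar fibroblasts, adventitial fibroblasts and capillaries. The share of gated cells with at least 10 stromal UMIs was higher in both GAL libraries than in both WT libraries, but in GAL replicate 2 it was 1 of 11 cells. The part of stromal RNA in the values of Fmo2 and Gpx3 was not tested. The 8 aerocyte markers summed to 505 and 413 CPM in GAL and 335 and 390 CPM in WT, most of it from Emp2, which is also a type 1 cell marker. With only gated cells under 10 such UMIs, Fmo2 was not called (log2 fold change 1.26, adjusted p = 0.820), Gpx3 had too few UMIs to be tested, and Retnla and Cd14 were called lower in GAL. Fmo2 was also not called without GAL replicate 1 (1.48, adjusted p = 0.235) or without WT replicate 1 (1.67, adjusted p = 0.149). Gpx3 was not called without GAL replicate 1 (1.12, adjusted p = 0.777) or without WT replicate 2 (1.77, adjusted p = 0.0580).

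The next genes by p were not called. Of those with higher values in GAL, Gsn, the actin-severing protein gelsolin, had 705 and 964 CPM in GAL and 210.2 and 383 CPM in WT (1.44 ± 0.30, edgeR adjusted p = 0.0937). Here 1 cell of GAL replicate 2 gave 70 of its 77 UMIs. S100a6, a calcium-binding protein, had 395 and 977 CPM in GAL and 229 and 179 CPM in WT (1.61 ± 0.34, edgeR adjusted p = 0.0937). Plpp3, Bgn and Sod3 also had higher values in both GAL libraries, and all of these 5 had lower CPM in gated cells than in the other barcodes of every library. Limch1, one of the fibroblast markers, had 271 and 225 CPM in GAL and 127 and 129.97 CPM in WT.

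**Figure D4:**
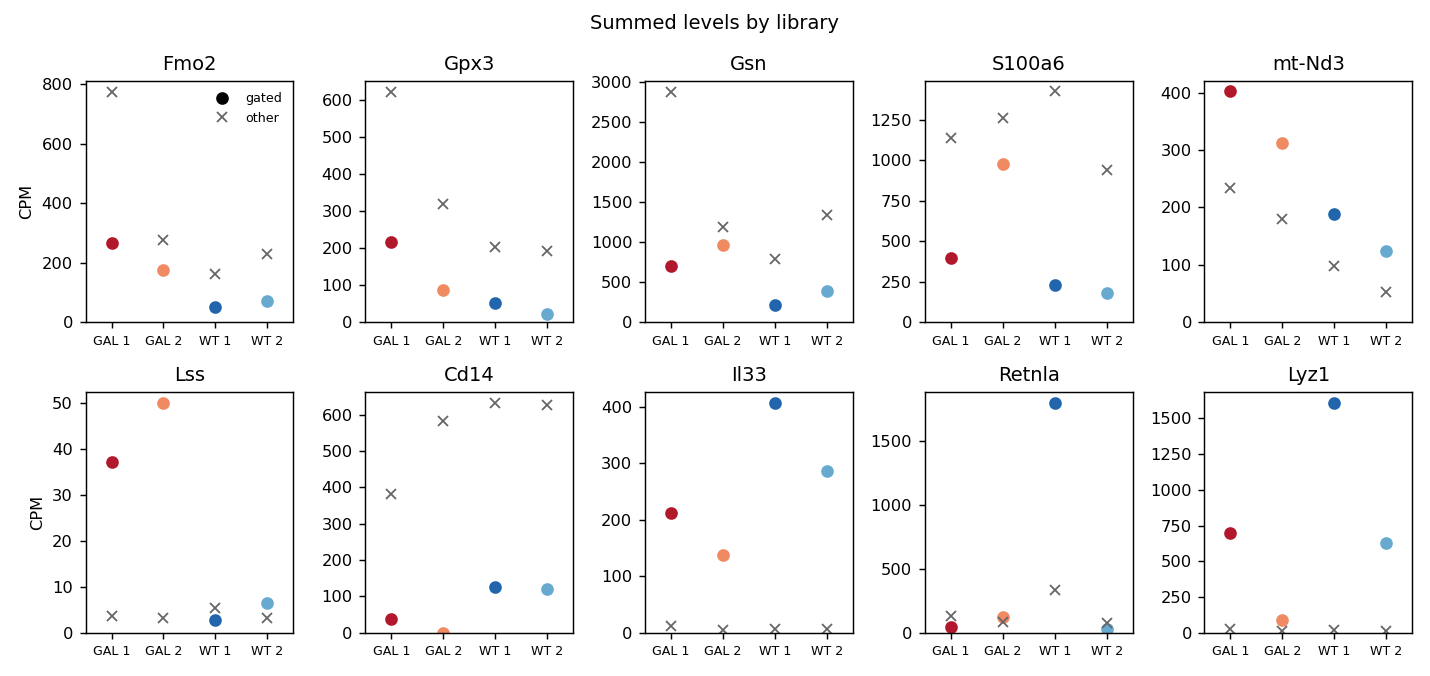
CPM of 10 genes summed over gated cells (coloured dots, GAL left of WT) and over the other kept barcodes (grey crosses) in each library. Fmo2 and Gpx3, the 2 called genes, lie below the crosses in all 4 libraries, whereas mt-Nd3, Il33 and Lyz1 lie above them.

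A pair of genes with higher values in GAL lay above the other barcodes, mt-Nd3 in every library and Lss in all but WT replicate 1 (2.77 against 5.48 CPM). The mitochondrial transcript mt-Nd3 (chrM:9459-9806, plus strand), a subunit of respiratory complex I, had 403 and 313 CPM in GAL gated cells, against 188 and 124 CPM in WT gated cells, without overlap and above the other barcodes of each library (233 and 180 CPM in GAL, 97.5 and 52.0 CPM in WT). In the other barcodes, too, mt-Nd3 was higher in both GAL libraries than in both WT libraries, so this was not particular to gated cells. In gated cells its log2 fold change was 1.24 ± 0.30 (edgeR adjusted p = 0.203). Its UMIs were spread over cells: the 3 highest cells of GAL replicate 1 held 4.5% of them. Lss, lanosterol synthase of the cholesterol pathway, had 37.2 and 50.1 CPM in GAL and 2.77 and 6.50 CPM in WT, from 62 and 4 UMIs in GAL and 1 and 2 UMIs in WT (3.07 ± 0.84, edgeR adjusted p = 0.540).

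Of uncalled genes with negative fold changes, Cd14 and Retnla had the smallest p at a mean of at least 20 CPM. Cd14, the lipopolysaccharide co-receptor, had 38.4 and 0 CPM in GAL and 127 and 120.2 CPM in WT (-1.83 ± 0.37, edgeR adjusted p = 0.0911). It was not called here, but was called in part of the alternative settings, which reuse many of the same cells, with fold changes between -7.96 and -0.98. The 3 highest cells held 28 of 46 Cd14 UMIs in WT replicate 1 and 15 of 64 in GAL replicate 1. In WT replicate 2, the highest of 50 cells held 18 of 37. Cd14 was lower in gated cells than in the other barcodes (381 and 583 CPM in GAL, 632 and 626 CPM in WT). Retnla, a secreted protein of type 2 inflammation, had 43.9 and 125 CPM in GAL and 1795 and 26.0 CPM in WT (-3.97 ± 0.94, edgeR adjusted p = 0.203). Of the 649 UMIs in WT replicate 1, 393 and 158 came from 2 cells, and without that library the fold change was 1.13. Chil3, S100a8, S100a9 and Pigr were likewise highest in WT replicate 1 and overlapped between groups, and WT replicate 2 was below both GAL libraries for Retnla, S100a8, S100a9 and Pigr. S100a8, S100a9 and Chil3, RNAs of neutrophils and alveolar macrophages, were lower in gated cells than in other barcodes in every library. The 10 neutrophil markers summed to 180 and 313 CPM in GAL and 982 and 149 CPM in WT, and the 14 alveolar macrophage markers to 211 and 200.4 CPM in GAL and 699.6 and 257 CPM in WT, so that their RNA moved with this library, and its part in the result was not tested.

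Of the host defence and cytokine list, 19 of 36 genes were tested and none was called. It had 1 member higher and 6 lower in GAL at an unadjusted p under 0.05, where 1.67% of all tested genes were higher and 1.24% lower, and a median log2 fold change of -0.40. Il33, an alarmin stored in the nucleus, had 213 and 138 CPM in GAL and 406 and 286 CPM in WT, without overlap (-0.86 ± 0.30, edgeR adjusted p = 1.00, unadjusted p = 0.00831), and it was far above the other barcodes (4.52 to 11.7 CPM). After each cell was thinned to 2000 UMIs, Il33 was found in 32.7% of 196 and 9.1% of 11 cells in GAL and in 45.6% of 57 and 50% of 38 cells in WT. The glutamate-cysteine ligase subunit Gclc had 355 and 200.4 CPM in GAL and 796 and 377 CPM in WT (-0.96 ± 0.33, edgeR adjusted p = 1.00). Lcn2, an iron-trapping antibacterial protein, had 997 and 1853 CPM in GAL and 3105 and 939 CPM in WT, and Wfdc2, a secreted protease inhibitor, had 2701 and 4283 CPM in GAL and 3885 and 3194 CPM in WT. Both overlapped.

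Lysozyme RNA came from a pair of paralogs with different patterns over cells. Lyz2 (chr10:117277331-117282321, minus strand), shared with macrophages, had 21202 and 21365 CPM in GAL and 21894 and 25220.5 CPM in WT, and 5231 to 7230 CPM in the other barcodes. It was found in 226 of 229 and 11 of 11 cells in GAL and in 64 of 64 and 50 of 50 cells in WT. Lyz1 (chr10:117287797-117292868, minus strand), best known from Paneth cells of the gut, had 699.8 and 87.7 CPM in GAL and 1607 and 630.4 CPM in WT, and 9.98 to 28.1 CPM in the other barcodes. Cells with at least 5 Lyz1 UMIs, a limit set after the values were seen, numbered 16 of 229 and 1 of 11 in GAL and 13 of 64 and 3 of 50 in WT. Their Lyz1 level was 9266 and 1284 CPM in GAL and 9876 and 5902 CPM in WT, while in the remaining gated cells it was 11.03 and 0 CPM in GAL and 6.60 and 29.0 CPM in WT. Lyz2 in the same cells was 11316 and 23115 CPM in GAL and 16648 and 13231 CPM in WT, against 21997 and 21237 CPM and 22910 and 26588 CPM in the remaining cells. Lyz2 was thus lower in the Lyz1 cells of 3 libraries and not in the 1 cell of GAL replicate 2. The 2 genes are close paralogs, so counting could split reads between them. The sum of Lyz1 and Lyz2 was 20583 and 24399 CPM in the Lyz1 cells of GAL and 26524 and 19133 CPM in those of WT, against 22008 and 21237 CPM in the remaining GAL cells and 22916 and 26617 CPM in the remaining WT cells. It was lower in the Lyz1 cells of replicate 1 of GAL and replicate 2 of WT, and higher in those of the other 2 libraries. With 0 of Lyz1, 199 and 10 GAL cells and 49 and 44 WT cells held 31334 and 1580, and 6641 and 6924, Lyz2 UMIs. The part of read splitting in these values was not tested.

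The stretches before the lysozyme genes are shown because their RNAs differed over cells. The genes lie 5475 bases apart, and the windows run from 250 to 51 bases before each start in RefSeq (GRCm38.p6), with capitals where a base was not matched to the same base of the other gene.
Lyz1, chr10:117292919-117293118, minus strand: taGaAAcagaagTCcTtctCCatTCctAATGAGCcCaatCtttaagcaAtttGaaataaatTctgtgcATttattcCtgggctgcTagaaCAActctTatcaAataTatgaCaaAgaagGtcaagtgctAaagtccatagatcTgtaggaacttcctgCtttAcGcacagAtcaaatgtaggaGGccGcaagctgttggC
Lyz2, chr10:117282323-117282522, minus strand: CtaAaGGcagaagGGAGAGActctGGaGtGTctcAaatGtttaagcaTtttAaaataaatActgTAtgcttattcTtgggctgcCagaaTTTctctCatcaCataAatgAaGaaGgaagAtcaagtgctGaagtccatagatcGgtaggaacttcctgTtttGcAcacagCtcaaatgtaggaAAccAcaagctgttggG
Of 190 aligned bases, 155 (81.6%) were identical.

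**Figure D5:**
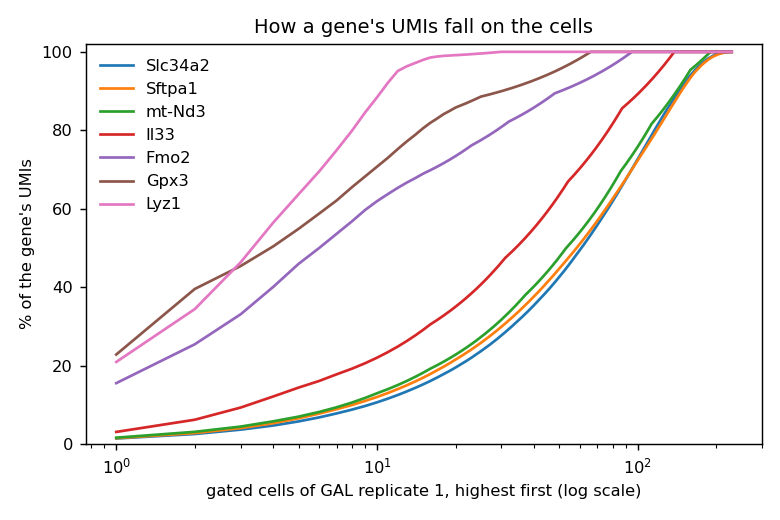
Share of a gene's UMIs (y axis, %) held by the gated cells of GAL replicate 1 that hold most of it (x axis, number of cells from the highest, log scale). A large part of the Lyz1, Gpx3 and Fmo2 UMIs comes from few of the 229 cells, while Sftpa1, Slc34a2 and mt-Nd3 are spread over most.

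Lipid synthesis, the supply of surfactant phospholipid, showed no called gene. Of surfactant lipid genes 21 of 27 were tested, with a median log2 fold change of 0.06, and of fatty acid genes 14 of 21, with a median of 0.17. Lpcat1, which makes dipalmitoyl phosphatidylcholine, had 1100.0 and 1453 CPM in GAL and 1136 and 1153 CPM in WT. Scd1, a fatty acid desaturase, had 3397 and 1691 CPM in GAL and 3044 and 2047 CPM in WT, and Fasn, fatty acid synthase, had 616 and 714 CPM in GAL and 628 and 546 CPM in WT. Groups overlapped for all 3, and each was over 10 times its level in the other barcodes. Scd2, a second desaturase, had 482 and 275 CPM in GAL and 257 and 224 CPM in WT, without overlap (0.75 ± 0.29, edgeR adjusted p = 1.00, unadjusted p = 0.0183).

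Of cholesterol genes 15 of 22 were tested, with a median of -0.05. Hmgcs1, an early enzyme of the pathway, had 171 and 138 CPM in GAL and 129.96 and 137 CPM in WT. Idi1 had 171 and 125 CPM in GAL and 138 and 179 CPM in WT.

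Lamellar body and lipid transport genes had 27 of 32 members tested and a median of 0.18. Both GAL libraries were above both WT libraries for 7 and below for 1 of them, where 14.9% of all tested genes were above and 14.5% below. Slc34a2, the phosphate cotransporter of these cells, had 3270.3 and 4270.5 CPM in GAL and 4167 and 2759 CPM in WT. Abca3, the transporter that loads lipid into lamellar bodies, had 454 and 601 CPM in GAL and 478 and 481 CPM in WT. Lamp3, a glycoprotein of the lamellar body membrane, had 1186 and 1014 CPM in GAL and 1239 and 1001 CPM in WT. These 3 belong to the gate. Rab3d, a GTPase of regulated secretion, had 39.0 and 62.6 CPM in GAL and 16.6 and 19.5 CPM in WT (1.23 ± 0.55, edgeR adjusted p = 1.00, unadjusted p = 0.0370).

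Regulators of the lung epithelium had 24 of 34 members tested, none called, and a median of 0.08. Etv5, the FGF-induced Ets factor of the gate, had 263 and 426 CPM in GAL and 379 and 299 CPM in WT. Foxp1, a forkhead repressor, had 373 and 438 CPM in GAL and 310 and 309 CPM in WT, and Klf4 had 312 and 388 CPM in GAL and 246 and 198 CPM in WT. In the other direction, Id2 had 268 and 338 CPM in GAL and 340.1 and 510.1 CPM in WT, and Sox4 had 142 and 113 CPM in GAL and 188 and 201 CPM in WT. For Foxp1, Klf4, Id2 and Sox4 the groups did not overlap, with unadjusted p between 0.0453 and 0.206.

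RNA of type 1 markers was found in most cells for some markers and in few for others. After thinning to 2000 UMIs, 3 UMIs of the list were found in a mean of 92.1% of cells in GAL and 85.1% in WT. Thinned to 1000 UMIs, the means were 57.3% and 48.4%, so this share depends on depth. At 2000 UMIs Hopx, another such marker, was found in a mean of 4.08% in GAL and 2.19% in WT. Cldn18, Ager and Emp2 were the highest of the 22 markers, of which 0 and 7 were at 0 in GAL and 4 and 4 in WT. Ager, the receptor for advanced glycation end products and a type 1 marker, had 752 and 426 CPM in GAL and 556 and 751 CPM in WT. In thinned cells it was found in 70.9% and 54.5% in GAL and 59.6% and 73.7% in WT, against 4.7% and 0.1% of GAL and 0.7% and 0.5% of WT cells with a Cd3e UMI, so its RNA was above the background. Of type 1 markers 15 of 22 were tested, with a median of 0.24 and 3 with an unadjusted p under 0.05, all higher in GAL (1.67% of all tested genes). Of genes of the transitional state between type 2 and type 1 cells 15 of 27 were tested, with a median of 0.34. The keratin Krt18 had 285 and 238 CPM in GAL and 196 and 149 CPM in WT (0.63 ± 0.29, edgeR adjusted p = 1.00, unadjusted p = 0.0396), and its partner Krt8 had 250.5 and 338 CPM in GAL and 310 and 188 CPM in WT. Cldn4, a defining gene of that state, was found, unthinned, in 2 cells of GAL replicate 1 and in 0 cells of the other libraries.

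Among airway cell markers, Scgb1a1 RNA came in large part from few cells of replicate 1 of both groups, and Cbr2 RNA was high in the gated cells of every library. The club cell RNA Scgb1a1 was found in 65.3% and 9.1% of thinned cells in GAL and 24.6% and 28.9% in WT, against 62.0% and 12.1% of GAL and 19.98% and 14.28% of WT cells with a Cd3e UMI. Its level was 1814 and 62.6 CPM in GAL gated cells and 3033 and 497 CPM in WT gated cells, in each library below the other barcodes (11776 and 1844 CPM in GAL, 3152 and 1915 CPM in WT). Among the gated cells of GAL replicate 1, 3 of 229 held 46.9% of its 3019 UMIs, and in WT replicate 1, 1 of 64 cells held 835 of 1097. The share was above that of Cd3e cells in 3 libraries and below it in GAL replicate 2, and the source of this RNA was not tested. The 14 club cell markers summed to 5795 and 5711 CPM in GAL gated cells and 7212 and 4890 CPM in WT gated cells, against 13042 and 2331 CPM and 3764 and 2364 CPM in the other barcodes, with 4 and 6 of the 14 at 0 in GAL and 4 and 6 in WT. The highest of them was Cbr2, a carbonyl reductase, with 3102 and 4721 CPM in GAL gated cells and 3373 and 3743 CPM in WT gated cells, against 327 and 117 CPM in the other GAL barcodes and 110.4 and 109 CPM in the other WT barcodes. Scgb3a2 was found in 0 thinned cells. The cell division list reached 3 UMIs in 6.1% and 0% of thinned cells in GAL and 17.5% and 21.1% in WT, below the 31.1% to 37.9% of Cd3e cells, so no division is read from it. Mki67 was at 3.60 and 12.5 CPM in GAL and 5.53 and 3.25 CPM in WT.

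Antigen presentation genes were present, at lower summed levels than in the other barcodes of every library. The 11 MHC class II genes summed to 4893 and 7639 CPM in GAL gated cells and 5320 and 6326 CPM in WT gated cells. In the other barcodes they summed to 9016 and 14836 CPM in GAL and 15053 and 11721 CPM in WT. The 15 MHC class I and immunoproteasome genes were also lower. Their ratio to the other barcodes was 0.428 and 0.609 in GAL and 0.499 and 0.308 in WT. Cd74, the class II invariant chain, had 3129 and 4884 CPM in GAL and 3191 and 3847 CPM in WT, and was found in 96.4% and 100% of thinned cells in GAL and 96.5% and 100% in WT, against 34.9% to 50.5% of Cd3e cells. Of MHC class II genes 7 of 11 were tested (median -0.15), and of MHC class I and immunoproteasome genes 12 of 15 (median -0.16). Neither list had a member with an unadjusted p under 0.05. Of interferon response genes 4 of 27 were tested, with a median of -0.04.

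Energy and stress genes gave no call beyond Gpx3. Of 12 mitochondrial DNA transcripts tested, 11 had positive fold changes, 6 were above WT in both GAL libraries (14.9% of all tested genes), and the median was 0.23, with mt-Nd3 the one member at an unadjusted p under 0.05. Of 39 nuclear oxidative phosphorylation genes the median was -0.09, and 2 lay above and 8 below. Of 42 cytosolic ribosomal protein genes the median was -0.02, of 10 glycolysis genes 0.02, and of 9 Leloir and galactose genes 0.02. Ugdh, UDP-glucose dehydrogenase, the one of these 9 with an unadjusted p under 0.05, had 30.0 and 37.6 CPM in GAL and 5.53 and 12.997 CPM in WT (1.77 ± 0.80, edgeR adjusted p = 1.00, unadjusted p = 0.0380). Of 24 immediate early genes, which dissociation can induce, 21 had positive fold changes, 8 were above WT in both GAL libraries and 0 below, where 14.9% of all tested genes were above and 14.5% below, and the median was 0.24. Fos, an early transcription factor, had 2171 and 1941 CPM in GAL and 1872 and 1293 CPM in WT (0.37 ± 0.24, edgeR adjusted p = 1.00). The mean shares of cells differed in the other direction, with overlap between groups: in thinned cells Fos was found in 82.1% and 54.5% in GAL and 80.7% and 78.9% in WT, and 3 UMIs of the list in 97.4% and 90.9% in GAL and 100% and 97.4% in WT.

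The remaining lists had medians close to that of all genes. The medians were 0.07 over 21 unfolded protein response genes, -0.10 over 22 oxidative stress genes, of which Gpx3 was called, -0.10 over 15 heat shock genes and 0.15 over 19 glucocorticoid and clock genes. They were 0.10 over 21 junction and keratin genes, -0.10 over 14 ion and water transport genes and -0.08 over 17 FGF, EGF, WNT and BMP signalling genes. Scnn1a, a subunit of the epithelial sodium channel that clears airspace fluid, had 145 and 238 CPM in GAL and 111 and 45.5 CPM in WT (1.09 ± 0.38, edgeR adjusted p = 1.00, unadjusted p = 0.00825). Hspa5, the endoplasmic reticulum chaperone BiP, had 1010.4 and 401 CPM in GAL and 879 and 777 CPM in WT.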

How the data were processed

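Whole lungs of GAL and WT mice were profiled with the SeekOne droplet kit, 2 libraries per group, per the labels' protocols. The values used are raw UMI counts per gene and barcode, which the authors deposited as whole numbers for 32285 genes. Per the submitters' processing notes, the tools were fastp, STAR and Seurat, with no versions, and the genome was GRCm38 (mm10). Other steps upstream are not given in the sources used here. No barcode had under 500 UMIs, so low barcodes were absent from the deposited matrices.

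UMIs of gated cells were summed per library and tested with edgeR 4.0.16 (quasi-likelihood, filterByExpr, TMM factors, Benjamini-Hochberg) in R 4.3.3. CPM are of all UMIs of a sum, without TMM scaling. DESeq2 1.42.0, other gates, filters, thinning and each library left out were alternatives. The test was tested on simulated counts. Shares and medians per library were compared by exact permutation of 4 libraries. No doublet caller entered the gate; Scrublet (scanpy 1.11.5), at an expected rate of 0.8% per 1000 barcodes, marked 27 and 1 GAL and 11 and 10 WT gated cells, which an alternative left out. For shares of cells with a gene, each cell was thinned to 2000 UMIs (shallower cells left out). The labels give no replicate numbers that pair the libraries.

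The gate, the gene lists and the marker lists were chosen with earlier results of these data known. Named were the genes of the gate, Galt, called genes, the uncalled genes with the smallest p in each direction at a mean of at least 20 CPM, and list members by p and by level. The exclusion of cells with stromal RNA and the Lyz1 limit were chosen after seeing the data.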

Additional observations from a re-analysis of the deposited data

How the results depend on the processing

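The 2 genes called higher and 0 lower in GAL moved with most settings. Higher and lower calls were 15 and 15 without a filter on low counts, 0 and 0 with DESeq2, 0 and 2 with at least 6 of 8 markers, and 0 and 2 with at least 50 Sftpc UMIs. They were 1 and 0 without exclusion genes (Scgb3a2) and 2 and 2 without high Scrublet scores (S100a6 and Mgp higher). With cells thinned to 2000 UMIs they were 3 and 3, with Fmo2 but not Gpx3 called. Among genes at least as high as in other cells (1967 tested) they were 0 and 0. Neither Fmo2 nor Gpx3 was called with at least 6 of 8 markers, at least 50 Sftpc UMIs, no exclusion genes or no high Scrublet scores. With gated cells under 10 stromal UMIs the higher and lower calls were 0 and 2, and under 5 they were 0 and 1, both settings chosen after seeing the data. Leaving out each library in turn gave 6 to 22 higher and 6 to 17 lower calls: 11 and 11 without GAL replicate 1, 22 and 13 without GAL replicate 2, 6 and 6 without WT replicate 1, and 8 and 17 without WT replicate 2. In these fits the lone library of a group is assumed to vary like the other group, and the cause was not tested. DESeq2 size factors and the 10% mitochondrial limit left both counts at 2 and 0.

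With a library left out, log2 fold changes ran from -3.42 to 6.24 for Pigr, -4.94 to 1.13 for Retnla, -3.15 to 1.04 for S100a8 and -2.97 to 1.26 for S100a9, each positive only without WT replicate 1. Limch1 was at -0.0212 under 5 stromal UMIs. The share difference ran from -0.298 to 1.49 percentage points, negative only without GAL replicate 1. The difference in median Sftpc UMIs ran from -126.5 to 328.5, in percent Sftpc from -2.95 to 1.49, and in percent of the surfactant list from -3.94 to 1.51. Of 50 differences in shares of cells at 2000 UMIs, 18 changed sign without thinning and 15 when thinned to 1000 UMIs. Without thinning they included MHC class II (1.94 percentage points; 6.26 when thinned to 1000 UMIs), cell division (14.8), Cd74 (2.03), Fos (10.1), immediate early genes (0.252), Lcn2 (-0.0279) and Ager (6.15). No paired analysis was possible because the labels give no shared replicate numbers.

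The 11 cells of GAL replicate 2 limit every value of that library, and the depth of 79850 UMIs leaves genes under about 50 CPM at a few counts there. With 2 libraries a group, permutation cannot pass 0.05.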
